A study of Mus musculus with 2 samples.

Results

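Fibroblasts of the mouse choroid that carried the transcripts of Pi16, Dpt and Clec3b were examined in 2 droplet libraries of the choroid and retinal pigment epithelium (RPE), named WT1 and WT2. Each library pooled the eyes of 1 male and 1 female wild-type ICR mouse, an outbred strain, at 8 weeks of age, and no treatment or mutant was compared. The dissected tissue spent 2 h in collagenase and 30 min in trypsin before 10000 cells per library were loaded for 10x Genomics 3' sequencing, which counts unique molecular identifiers (UMIs). WT1 held 91741168 UMIs and WT2 149570817, and 8497 and 13401 barcodes passed as cells, with medians of 7842 and 8253 UMIs. The libraries shared 31 cell barcodes, none of them among the cells described here. The 2 libraries are pools of separate mice and are the replicates of every test (n = 2).

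The cells were chosen by their own transcripts. A cell counted as a fibroblast with at least 10 UMIs of Col1a1, Col1a2, Col3a1, Dcn and Lum together and at most 2 of Cdh5, Ptprc, Sox10, Higd1b and Myh11 together. A fibroblast was then placed in the set of genes with its largest UMI sum, if that sum was at least 3 and no other set equalled it. The sum of Pi16, Dpt and Clec3b was the largest in 549 of 10664 fibroblasts, or of 21898 cells in all. In WT1 this gave 230 of 4177 fibroblasts, 5.51% (exact 95% binomial interval 4.83% to 6.24%, which covers counting error only). In WT2 it gave 319 of 6487, 4.92% (4.40% to 5.47%). The other 6 subsets are named by their gate genes: Tfpi2-Tcf21-Alpl with 1011 cells in WT1 and 1756 in WT2, Ltbp2-Cyp26a1-Comp with 760 and 1529, Crabp2-Ephb1-Nrk with 316 and 444, Angptl7-Cilp2-Cnmd with 206 and 194, Kera-Thbs4 with 256 and 281, and Cxcl5-Csf3-Il11 with 543 and 784. A further 855 and 1180 fibroblasts fell in no subset.

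Adventitial fibroblasts lie in the outer coat of larger vessels and in the fascia around organs. In several mouse organs they are marked by Pi16 (peptidase inhibitor 16), by Dpt (dermatopontin, a small matrix protein that binds decorin) and by Clec3b (tetranectin, a plasminogen-binding protein). They are known for surface proteins shared with progenitor cells, such as CD34 and Sca-1 (Ly6a), and for a matrix rich in fibrillin, microfibril proteins and collagen XIV.

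The gate genes are described without a test, because they chose the cells. Their level is given as CPM, the counts per 1000000 UMIs of the summed cells. Pi16 stood at 2512 CPM in WT1 and 1609 in WT2, Dpt at 334 and 438, and Clec3b at 851 and 951. At least 1 UMI of Pi16 was found in 91.7% of the cells in WT1 and 74.6% in WT2, of Dpt in 55.7% and 66.1%, and of Clec3b in 60.9% and 79.3%. Dpt was scarce elsewhere, detected in 1.05% of Ltbp2-Cyp26a1-Comp cells in WT1 and 1.50% in WT2, and in 4.69% and 3.56% of Kera-Thbs4 cells. Clec3b was found in 2.24% and 8.50% of Ltbp2-Cyp26a1-Comp cells. It reached 14.5% and 22.8% of Kera-Thbs4 cells and 2.76% and 14.9% of Cxcl5-Csf3-Il11 cells. Pi16 was not scarce elsewhere, since 59.3% and 53.0% of Ltbp2-Cyp26a1-Comp cells and 48.0% and 37.4% of Kera-Thbs4 cells also held it. In cells that should lack Pi16, the share was 5.03% and 6.78% of macrophage-gated cells (median 9254 and 9024 UMIs) and 8.63% and 6.65% of endothelial-gated cells (median 8881 and 9035 UMIs). The Pi16-Dpt-Clec3b cells had medians of 10593 and 9930 UMIs. After each cell was thinned to 3000 UMIs, Pi16 remained detected in 84.6% of 227 cells in WT1 and 62.4% of 311 in WT2, with 3 and 8 cells too shallow to enter.

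The sum of the 3 gate genes had a median of 22.5 UMIs in WT1 and 16 in WT2 and ran from 3 to 315 and from 3 to 258. At the threshold, 13 and 27 cells held exactly 3 UMIs, and 12 and 22 fibroblasts outside it held 2 with no larger or equal sum of another set. Another 496 and 632 fibroblasts reached 3 UMIs of these genes but had more of another set, and 19 and 19 were tied. Of the cells inside the gate, 101 (43.9%) and 126 (39.5%) also held at least 3 UMIs of another set.

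The 3 genes did not mark all gated cells alike. All of them were found in 104 cells of WT1 and 155 of WT2. Pi16 without Dpt and Clec3b was found in 76 cells (33.0%) and 53 cells (16.6%). Cells without a Pi16 UMI, carried by Dpt, Clec3b or both, numbered 19 and 81. An undetected gene is not an absent one at these depths.

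**Figure D1:**
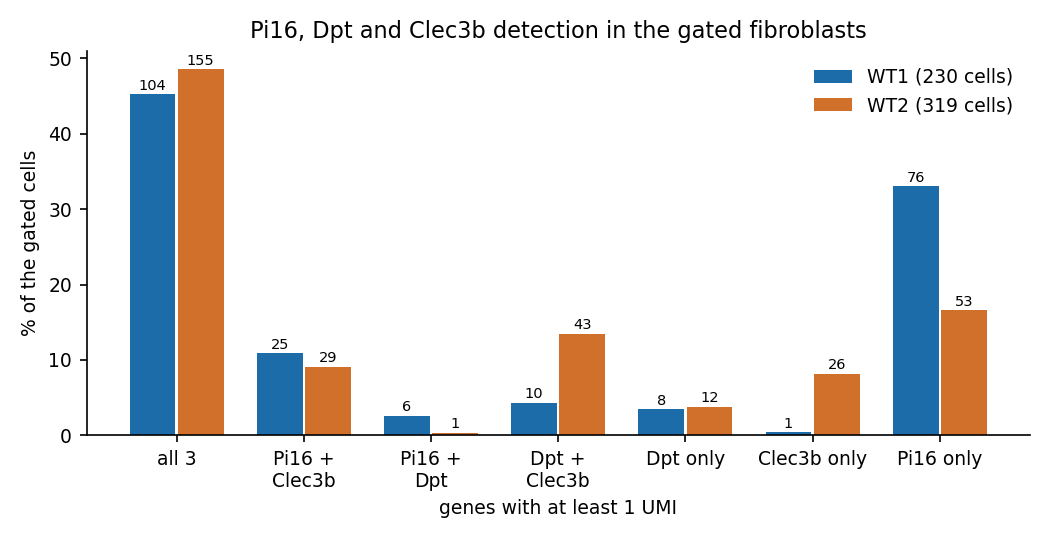
Percent of the gated fibroblasts (y axis) by which of Pi16, Dpt and Clec3b had at least 1 UMI (x axis), in WT1 (230 cells) and WT2 (319 cells), with cell numbers above the bars. The largest class in both libraries held all 3 genes (104 and 155 cells), and Pi16 alone was found in 76 and 53 cells.

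To ask what set these fibroblasts apart beyond the gate, UMIs were summed per library and subset, and the Pi16-Dpt-Clec3b sum was compared with the equally weighted mean of the other 6 subsets (edgeR quasi-likelihood test with library as block, Benjamini-Hochberg adjustment over all genes). Calls required an adjusted p below 0.05 and an absolute log2 fold change no smaller than 1, and the genes used by any gate were never counted. Of 12305 genes tested, 493 were higher (4.01%) and 246 were lower (2%), with a median log2 fold change of 0.01. The gates were drawn from earlier looks at the same cells. The tests therefore show whether a difference recurs in both libraries and not that the subset exists as a separate population, and all subsets of a library come from the same mice.

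**Figure D2:**
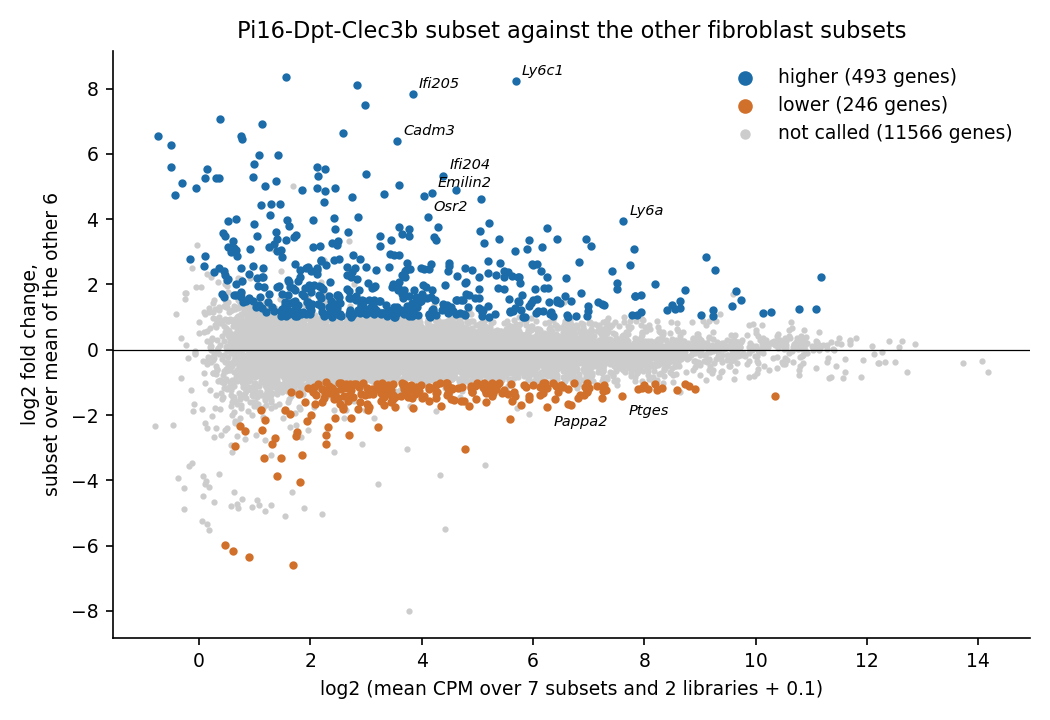
Log2 fold change of the Pi16-Dpt-Clec3b subset over the mean of the other 6 (y axis) against the log2 of the mean level plus 0.1 (x axis, CPM) for 12305 genes. The 493 genes called higher reach larger changes than most of the 246 called lower, and some of the named genes are labelled.

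The label of adventitial-type cells was set beside 28 genes that earlier atlases of other mouse organs place in Pi16-positive adventitial fibroblasts. The list was chosen with earlier results of these data known, so it is not an independent check of the label. Of the 28 genes, 27 were higher and none lower, with a median log2 fold change of 2.93. Among them, 18 were higher than in each of the other 6 subsets taken singly. Over all genes tested, 141 (1.15%) were higher than in each of the 6. The median of the list was the same with the 4 genes that had no UMI in some subset set to a floor of 3 UMIs per subset over both libraries. Procr, the endothelial protein C receptor, was the member not called, at 213 CPM in WT1 and 261 in WT2 against 605 and 409 in the mean of the others (log2 fold change -0.04, SE 0.28, adjusted p = 0.95, edgeR).

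The surface proteins of the list were among the most distinctive. Ly6c1, a GPI-anchored surface antigen (ENSMUSG00000079018, chromosome 15:75044018-75048830, GRCm38), had 360 CPM in WT1 and 333 in WT2, against at most 5.25 and 6.04 in any other subset. It had no UMI in Angptl7-Cilp2-Cnmd cells, and with the floor of 3 UMIs there the log2 ratio over the mean of the subsets was 7.41. Ly6a, the stem cell antigen Sca-1 (chromosome 15:74994877-74998031), stood at 967 and 915 CPM, against 22.4 to 176 in the other subsets of WT1 and 11.0 to 146 in WT2 (log2 fold change 3.93, SE 0.17, adjusted p = 1.3e-06, edgeR). Neither gene overlapped between this subset and the rest in either library. Ly6 genes are close copies of each other, so reads may have been split among them. Both were also found in endothelial-gated cells, with Ly6c1 at 280 and 230 CPM and Ly6a at 502 and 359.

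Cd34, a sialomucin of progenitor and endothelial cells, had 462 CPM in WT1 and 604 in WT2, while the highest other subset had 86.7 and 116 (log2 fold change 3.40, SE 0.08, adjusted p = 2.0e-12, edgeR). It was detected in 77.8% and 79.0% of the cells, against 40.5% and 54.7% of Crabp2-Ephb1-Nrk cells and 67.3% and 70.4% of endothelial-gated cells. Dpp4, a membrane peptidase that marks fibroblast progenitors of fascia in mice, was less abundant, with 39.8 and 84.3 CPM and a log2 fold change of 5.06 (SE 0.18), and was detected in 22.2% and 25.7% of the cells. Ackr3, a scavenger receptor for CXCL12, had 408 and 292 CPM against at most 69.9 and 47.7 elsewhere. Cd55, which speeds the decay of complement convertases, had 68.1 and 118 CPM against at most 7.22 and 8.58. Cd248 (endosialin), Sema3c, a secreted semaphorin, and Adgrd1, an adhesion receptor, were also higher than in every other subset, with 150 and 149, 210 and 230, and 44.8 and 48.9 CPM.

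Secreted and matrix genes of the list followed the same direction. Mfap5, a microfibril-associated glycoprotein, reached 2228 CPM in WT1 and 1837 in WT2, against 254 to 598 and 215 to 545 in the other subsets. Has1, a hyaluronan synthase, had 873 and 716 CPM against at most 315 and 189, and Tnxb, which encodes tenascin-X, 227 and 266 CPM against at most 57.8 and 58.8. Fn1 and Igfbp6, in contrast, were called over the mean of the other subsets but overlapped with single ones. Fn1 (fibronectin) had 586 and 796 CPM, below the 727 and 967 of Kera-Thbs4 cells. Igfbp6, a binding protein for IGF-II, had 2438 and 2122 CPM, below the 4825 and 3352 of Angptl7-Cilp2-Cnmd cells, and its call was lost without the library block. With the other subsets summed in place of their mean, Fn1 (log2 fold change 0.99), Igfbp6 (0.73) and Opcml, a neuronal adhesion molecule (0.93), fell below the limit of 1, and Limch1 lost its call without the filter on low counts.

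**Figure D3:**
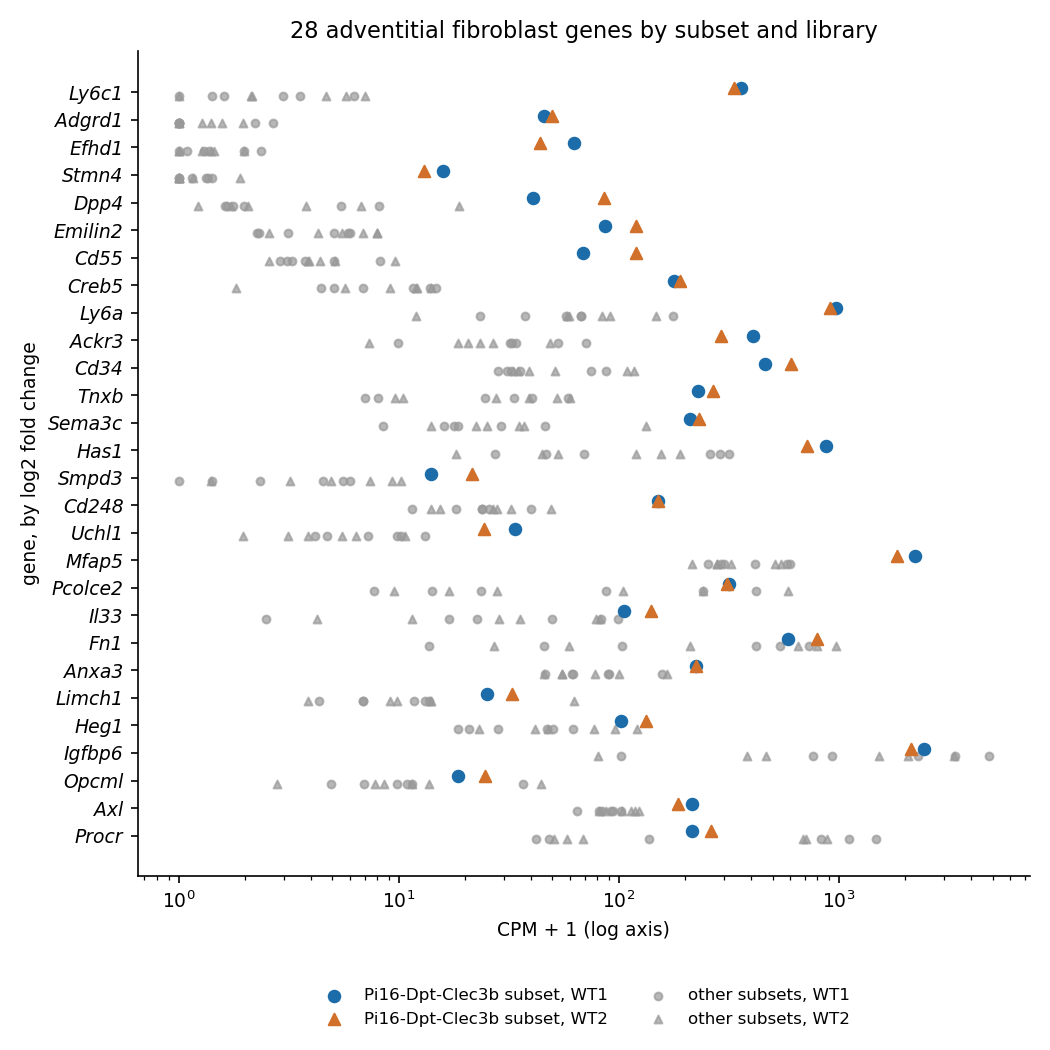
Levels of the 28 adventitial genes in CPM plus 1 (x axis, log scale) by gene (rows, ordered by log2 fold change), for the Pi16-Dpt-Clec3b subset (coloured) and each of the other 6 subsets (grey), with circles for WT1 and triangles for WT2. From Ly6c1 at the top to Mfap5 the coloured points lie to the right of all grey ones, while those of Procr at the bottom lie among them.

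Outside the list, the genes with the largest changes at 50 CPM or more included members of the interferon-inducible Ifi200 family. Ifi205 (chromosome 1:174011998-174031810, GRCm38) had 97.5 CPM in WT1 and 94.5 in WT2 against at most 1.64 and 2.93 in the other subsets. Ifi204, Ifi207 and Ifi205 lie within 1 cluster on chromosome 1 and are close copies, so counts may have been shared between them. Ifi204 had 121 and 129 CPM against at most 6.54 and 7.05, and Ifi207 had 71.9 and 115 against at most 9.52 and 17.8. Outside the fibroblasts, not all of these genes were highest in the subset. Macrophage-gated cells held 129 and 135 CPM of Ifi204, 342 and 442 of Ifi207, and 33.4 and 19.5 of Ifi205. Endothelial-gated cells held 46.2 and 53.3 CPM of Ifi204, 8.86 and 18.7 of Ifi207, and 2.30 and 0.797 of Ifi205. For Ifi205, 1 cell held 30.2% of the UMIs in WT1 and 13.3% in WT2.

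Cadm3, a neural cell adhesion molecule, had 71.5 CPM in WT1 and 71.1 in WT2 against at most 5.91 and 3.72, in 79 and 116 cells. Emilin2, an elastic fibre glycoprotein that does belong to the adventitial list, had 85.3 and 119 CPM against at most 5.03 and 6.99. Macrophage-gated cells held 66.8 and 66.9 CPM of it. Htra3, a secreted serine protease, had 215 and 148 CPM against at most 25.4 and 16.8 (log2 fold change 3.88, SE 0.10, adjusted p = 2.9e-12, edgeR). Nts, the precursor of neurotensin, had 109 and 109 CPM against at most 21.8 and 40.1, but came from 42 and 24 cells, with 22.5% and 40.9% of its UMIs in 1 cell.

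Among genes at 50 CPM or more, the largest decreases were smaller than the largest increases. Mylk, the myosin light chain kinase of contractile cells, had 36.7 CPM in WT1 and 53.6 in WT2, below the 70.5 to 121 and 100.4 to 171 of the other subsets. It was 1 of 11 genes (0.0894%) lower than in each of the 6 (log2 fold change -1.48, SE 0.12, adjusted p = 1.1e-06, edgeR). The other 7 genes named by size were lower than in 3 or 4 of the 6. Tnc, which encodes tenascin-C, had 13.8 and 25.5 CPM against 74.0 and 116 in the mean of the others. It was called higher than in Tfpi2-Tcf21-Alpl cells, however (log2 difference 1.38, adjusted p = 0.013, edgeR). Tbx3, a T-box transcription factor, had 19.1 and 24.0 against 109 and 125, and Pappa2, a protease that cleaves IGF-binding proteins, 10.3 and 21.1 against 58.8 and 115. Tmem37, Rgs7bp and Ptges, the prostaglandin E synthase, had log2 fold changes of -1.66, -1.46 and -1.42. Tbx3, Pappa2 and Tmem37 did not pass the test against Angptl7-Cilp2-Cnmd or Kera-Thbs4 cells. Camp (log2 fold change -1.50), which encodes a neutrophil antimicrobial peptide, had 50.8% and 53.3% of its UMIs in the subset in 1 cell, and its call was lost under 6 of 13 alternative settings. The calls of Pappa2 without the library block (adjusted p = 0.12, edgeR) and of Tmem37 without Cxcl5-Csf3-Il11 cells (adjusted p = 0.054, edgeR) were also lost.

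The counts of this list and of those below stand beside 4.01% higher and 2% lower over all genes tested. Among 21 elastic fibre genes tested, 8 were higher and none lower (median log2 fold change 0.65). Fbn1, which encodes the microfibril backbone fibrillin-1, had 593 CPM in WT1 and 926 in WT2 against 83.4 to 129 and 122 to 199 in the other subsets (log2 fold change 2.59, SE 0.06, adjusted p = 2.0e-12, edgeR). The levels of this subset lay above all others in both libraries. Eln (elastin) had 128 and 197 CPM, above the 106 and 102 of the next subset, Ltbp2-Cyp26a1-Comp, where the log2 difference was 0.58. Fbln2, Efemp1, Ltbp1 and Loxl3 were the other members called, beside Mfap5 and Emilin2, with log2 fold changes of 1.74, 2.19, 1.67 and 1.02, and Loxl3 lost its call under 3 alternative settings.

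Of 19 collagen genes tested outside the gate, 5 were higher and 1 lower (median 0.59). Col14a1, a fibril-associated collagen of adventitia and fascia, had 598 CPM in WT1 and 1214 in WT2 against 263 and 372 in the mean of the others (log2 fold change 1.50). Col6a6, a chain of microfibrillar collagen VI, had 15.7 and 40.4 CPM against at most 1.17 and 4.52, and Col5a3 60.1 and 135 CPM against at most 23.9 and 33.9. The cartilage chain Col11a1 was the member called lower, with 111 and 158 CPM against 235 and 399, a call lost without the library block. Of 11 small leucine-rich proteoglycan genes tested, Aspn, Podn and Epyc were higher and none lower (median 0.36). Col15a1, the basement-membrane chain that names the other widespread fibroblast type of mouse organs, had 25.6 and 74.9 CPM against 24.6 and 25.4 and was not called (log2 fold change 1.20, adjusted p = 0.06, edgeR). In the list of 15 genes of that type, 4 were higher (Hmcn2, Lpl, Smoc2 and Sparcl1) and 1 lower (Penk, the precursor of enkephalins, with 452 and 439 CPM against 1275 and 1640), with a median of 0.56. Smoc2, a secreted matricellular protein, did not pass when the other subsets were summed (log2 fold change 2.47, adjusted p = 0.091, edgeR).

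Proteases and their partners were called higher in 10 of 33 cases and lower in 1, at a median of 0.17. Adamts5, an aggrecan- and versican-cleaving enzyme, had 157 CPM in WT1 and 276 in WT2 against at most 44.4 and 93.7. Bmp1, which trims procollagens, had 157 and 156 CPM against at most 70.4 and 71.2, and Mmp2, a gelatinase, 519 and 508 CPM against 184 and 179 in the mean of the others. Adamts4 was the member called lower, at 34.0 and 89.6 CPM against 189 and 344, and lost its call under 3 alternative settings. Mmp27 rested on 6 and 7 cells.

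Complement genes were called higher in 6 of 22 cases and lower in 1 (median 0.58). C3, the central component, had 96.4 CPM in WT1 and 196 in WT2 against at most 27.3 and 32.1 in the other subsets (log2 fold change 3.26, SE 0.19, adjusted p = 1.7e-06, edgeR). Cfb, its partner in the alternative pathway convertase, had 126 and 155 CPM against at most 85.1 and 101. Masp1, C4b, C7 and Cd55 were also higher, C7 with UMIs in only 6 and 19 cells. C5ar1, a receptor of myeloid cells, was called lower at 1.15 and 0.585 CPM against 3.29 and 3.48. That call was lost under 4 of 13 alternative settings, and under 3 more, the removal of cells with 20 UMIs of another cell type among them, the gene was too sparse to test. C4b lost its call without the library block and when the other subsets were summed.

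Among 24 chemokine, cytokine and immune ligand genes tested, 5 were higher and 1 lower (median 0.37). Il33, an alarmin of the adventitial list, had 105 CPM in WT1 and 140 in WT2 against at most 98.4 and 81.4. It did not pass after thinning to 3000 UMIs (log2 fold change 1.92, adjusted p = 0.075, edgeR). Csf1, the growth factor of macrophages, had 446 and 379 CPM against at most 312 and 270. Cxcl1, a neutrophil chemokine, had 1554 and 1154 CPM against 872 and 554 in the mean of the others, but the Cxcl5-Csf3-Il11 subset stood higher at 2560 and 1693, and the calls of Cxcl1 and Csf1 were lost when the other subsets were summed. Ccl8 and Cxcl13 were called higher with 19 and 28 and with 3 and 4 cells, and Cx3cl1 was called lower, though not without Cxcl5-Csf3-Il11 cells.

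Of 24 Wnt pathway genes, 5 were higher and 2 lower (median 0.15, or -0.09 with 2 genes that had no UMI in some subset set to the floor). Wnt2, a Wnt ligand, had 75.4 CPM in WT1 and 48.9 in WT2 against at most 8.21 and 10.4 (log2 fold change 3.47, SE 0.15, adjusted p = 4.5e-10, edgeR). Sfrp4, a secreted Wnt-binding protein, had 264 and 224 CPM against at most 141 and 96.9, while Sfrp2, also called, lay at 1024 and 930 CPM, below the 2306 and 2504 of Angptl7-Cilp2-Cnmd cells. Wnt2b and Wnt9a were the other members called higher, and Wnt4 and Sost those called lower. Wnt4 lost its call under 5 alternative settings, and Sfrp2 when the other subsets were summed. Without cells holding 3 UMIs of another gate set, Sfrp2 and Sost were not called either.

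Of 24 BMP and TGF-beta genes tested, 4 were higher and 1 lower (median 0.20). Bmp3, an atypical BMP that antagonises the others, had 22.9 CPM in WT1 and 19.9 in WT2 against at most 10.1 and 6.99, and Fstl1, a secreted follistatin-like protein, 1265 and 1966 CPM against at most 567 and 842. Nbl1 and Bmper were also higher and Sost, which is in both lists, was lower. Nbl1 lost its call without the library block, and Bmper without cells holding 3 UMIs of another gate set. Of 13 IGF genes 1 was higher (Igfbp6) and 1 lower (Pappa2), at a median of 0.24. Of 12 retinoid genes 1 was higher, Aldh1a3, which makes retinoic acid, at 33.3 and 41.3 CPM against 10.4 and 7.43 (median 0.17). Of 34 growth factor and receptor genes 4 were higher (Axl, Vegfd, Fgf7 and Fgf10) and 1 lower (Fgfr2), at a median of -0.03. Beside 4.01% higher and 2% lower over all genes, single calls in the IGF, retinoid and growth factor lists are not read as results about them. Axl is also in the adventitial list. The calls of Fgf7 and Fgf10 were lost with DESeq2, without the library block and when the other subsets were summed.

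Transcription factors were called higher in 9 of 37 cases and lower in 3, at a median of 0.33. Creb5, a CREB-family factor of the adventitial list, had 178 CPM in WT1 and 189 in WT2 against at most 13.8 and 13.0 (log2 fold change 4.62, SE 0.13, adjusted p = 2.2e-11, edgeR). Macrophage-gated cells held 62.8 and 86.1 CPM of it. Ebf2, an early B-cell factor family member also known from fat progenitors, had 47.4 and 66.2 CPM against at most 2.59 and 4.69. Osr2, Meox2, Twist2, Tbx15, Ebf3, Osr1 and Foxf1 were the others called higher, of which Osr2 and Meox2 exceeded each of the 6 subsets. The factors called lower were Mkx, a tendon regulator, at 11.9 and 16.1 CPM against 28.7 and 46.2, Lmx1b at 9.18 and 5.56 against 12.8 and 19.5, and Foxf2 at 10.3 and 9.07 against 25.4 and 25.7. Mkx and Lmx1b lost their calls without the library block, and Foxf1 and Osr1 when the other subsets were summed.

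Immediate early genes, which respond to tissue digestion, were called higher in 2 of 20 cases (Fos and Atf3) with a median of 0.21. Fos had 2184 CPM in WT1 and 1957 in WT2 against 1087 and 1131 in the mean of the others, and the call was lost when Cxcl5-Csf3-Il11 cells were left out. None of 13 cell cycle genes was called by edgeR, though their median log2 fold change was 0.72. Mki67, a marker of dividing cells, had no UMI in the subset in WT1 and UMIs in 5 cells in WT2.

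**Figure D4:**
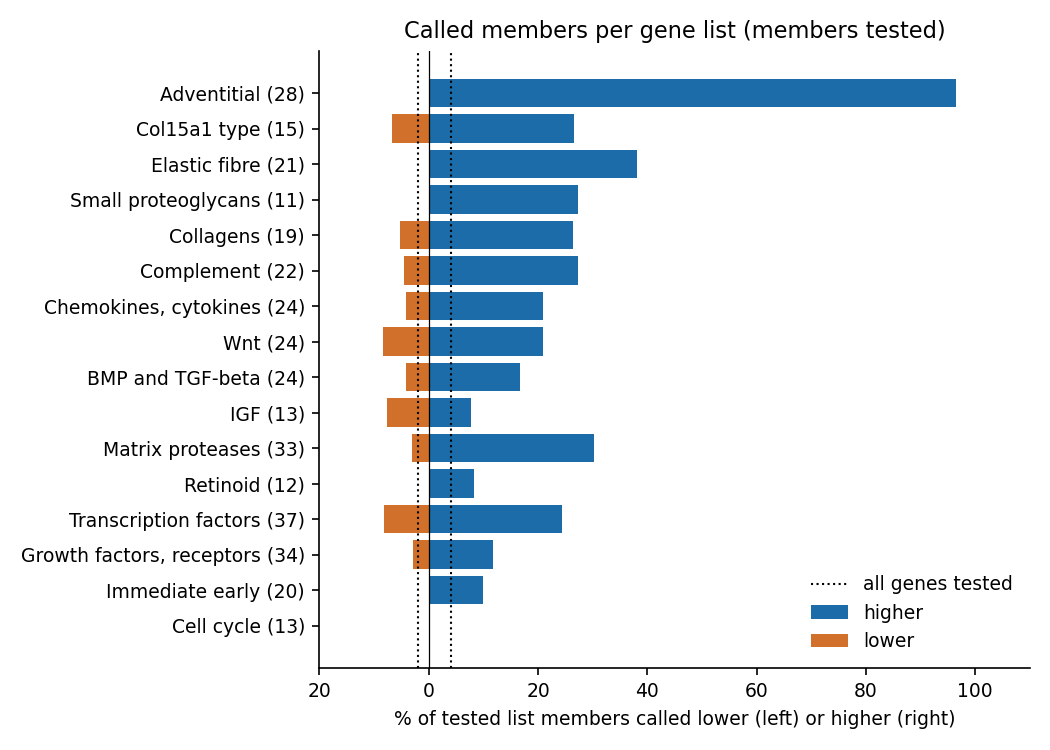
Percent of the tested members of 16 gene lists (rows, number tested in brackets) called higher (right) or lower (left) in the Pi16-Dpt-Clec3b subset against the mean of the other 6, with dotted lines at the shares of all genes tested (4.01% and 2%). The adventitial list, with 27 of 28 higher, reaches farthest to the right, and no cell cycle gene was called.

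The subset was most alike in its profile to Ltbp2-Cyp26a1-Comp fibroblasts (Pearson's r of log2 CPM across 12305 genes 0.935 in WT1 and 0.932 in WT2). Cxcl5-Csf3-Il11 cells followed with 0.915 and 0.925, close to Kera-Thbs4 cells with 0.919 and 0.920 and Crabp2-Ephb1-Nrk cells with 0.919 and 0.920. Genes are not independent replicates, and the order of these 3 is not resolved. The values are for all gated cells together, and the kinds of gated cells described below differed in them. Ltbp2-Cyp26a1-Comp cells also had the deepest sums, 11057478 UMIs in WT1 and 21630650 in WT2. The part of depth in r was not tested. Against Ltbp2-Cyp26a1-Comp cells, 627 genes were higher (5.1%) and 438 lower (3.56%). Against Cxcl5-Csf3-Il11 cells, 685 were higher (5.57%) and 789 lower (6.41%).

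Against Ltbp2-Cyp26a1-Comp cells, 22 of the 28 adventitial genes were higher and none lower. Creb5 stood at 178 CPM in WT1 and 189 in WT2 against 3.44 and 4.72, and Ifi205 at 97.5 and 94.5 against 0.723 and 0.0925. The genes that were lower included Penk, with 452 and 439 CPM against 2900 and 3556, Tnc, with 13.8 and 25.5 against 137 and 205, and Gdnf, a neurotrophic factor, with 39.0 and 39.8 against 157 and 284. Wif1, a secreted Wnt inhibitor, had 7.65 and 7.03 CPM against 66.4 and 60.7. Cyp26b1, which breaks down retinoic acid, had 18.4 and 41.0 against 162 and 238, and Car3, a carbonic anhydrase, 17.6 and 13.5 against 134 and 124. Aspn and Fn1 did not pass the test between them (log2 differences 0.39, adjusted p = 0.18, and 0.34, adjusted p = 0.12, edgeR).

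Against Cxcl5-Csf3-Il11 cells, 25 of the 28 adventitial genes were higher and 1, Procr, was lower. Cd55 had 68.1 CPM in WT1 and 118 in WT2 against 2.74 and 2.93, and Emilin2 85.3 and 119 against 4.90 and 5.85. Of the 24 immune ligand genes 1 was higher and 8 were lower. The Cxcl5-Csf3-Il11 cells were chosen by 3 genes of that list, which were not counted. The direction of this count therefore follows in part from the gate and is no independent result. Il1rn, the interleukin-1 receptor antagonist, had 2.68 and 3.51 CPM against 54.8 and 58.7, and Dll1, a Notch ligand, 3.06 and 10.8 against 54.6 and 89.9. Tbx3 and Pappa2 were lower as well, with log2 differences of -3.32 and -3.10. Both comparisons share the Pi16-Dpt-Clec3b cells.

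Within the gate, cells with a Pi16 UMI (211 in WT1 and 238 in WT2) were compared with those without (19 and 81). Of 12050 genes, 59 were higher (0.49%) and 45 lower (0.373%). Because of the gate, the cells without Pi16 needed at least 3 UMIs of Dpt and Clec3b, while those with Pi16 include the cells with Pi16 alone. Chad (chondroadherin, a cartilage and tendon matrix protein) had 360 and 246 CPM in cells with Pi16 against 6.77 and 26.0 in those without (log2 fold change 3.66, SE 0.30, adjusted p = 2.7e-05, edgeR). Wnt2 had 79.9 and 61.2 CPM against 0 and 6.49, and Efhd1, a mitochondrial calcium sensor of the adventitial list, 64.5 and 55.2 against 13.5 and 1.30. Nts, Gap43 and Lmcd1 were the other genes named as higher. Without cells holding 3 UMIs of another gate set, the log2 fold change of Chad was 0.66 (adjusted p = 0.84, edgeR).

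The genes named as lower in Pi16-detected cells began with Aqp1, a water channel, at 43.0 and 48.4 CPM against 217 and 249 (log2 fold change -2.33, SE 0.37, adjusted p = 0.018, edgeR). Ccl19, a chemokine for lymphocytes and dendritic cells, had 27.2 and 25.7 CPM against 210 and 74.0, and Masp1 6.89 and 15.9 against 54.1 and 62.3. Cilp, a cartilage matrix protein, Gfra2, a neurturin receptor, and Ptgfr, a prostaglandin F receptor, had log2 fold changes of -2.14, -2.02 and -1.87. Within the adventitial list, 15 of 28 genes were higher in cells with Pi16 and none lower. Of the 12 genes named in this split, 11 lost their call under at least 1 of 10 alternative settings, and Gfra2 under none of them. After thinning to 3000 UMIs the calls of Wnt2, Nts, Gap43, Lmcd1, Masp1, Cilp and Ccl19 were lost (adjusted p 0.13 to 0.56, edgeR). Without the library block those of Efhd1, Gap43, Masp1, Cilp, Ccl19 and Ptgfr were lost, and only 11 genes were higher and 3 lower in all. Without the filter on low counts, Aqp1 had an adjusted p of 0.054 (edgeR).

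The sexes were unequally represented in this split. Cells with Xist and no Y-linked UMI made up 36.3% in WT1 and 70.3% in WT2 of the cells with Pi16 and another gate gene and 35.5% and 47.2% of those with Pi16 alone, against 57.9% and 86.4% of the cells without Pi16. The part of this in the split was not tested.

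The Pi16-detected cells held both kinds of profile, which is described here without a test because the division was chosen after values were seen. Cells with Pi16 and Dpt or Clec3b (135 in WT1 and 185 in WT2) stood above the mean of the other 6 subsets in both libraries for 27 of the 28 adventitial genes. Cells without Pi16 did so for 20, and cells with Pi16 alone (76 and 53) for 12. Of all 12305 genes tested, 4425, 2758 and 3181 stood above that mean in these 3 kinds of cells. More than 2 times the mean was reached by 25, 13 and 2 of the adventitial genes, and by 479, 296 and 81 of all genes. Ly6c1 had 595 and 502 CPM in the cells with Pi16 and another gate gene, 149 and 112 in those without Pi16, and 0 and 10.7 in those with Pi16 alone. Cd34 had 706 and 852 CPM in the cells with Pi16 and another gate gene, 318 and 269 in those without Pi16, and 77.0 and 141 in those with Pi16 alone. For Fbn1 the values of these 3 kinds of cells were 908 and 1246, 169 and 523, and 133 and 287 CPM.

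Markers of tendon and cartilage differed in the opposite direction. The 4 tendon markers tested outside the gates (Scx, Mkx, Tnmd and Fmod) and the 4 cartilage markers (Acan, Col2a1, Sox9 and Chad) all stood higher, in both libraries, in cells with Pi16 alone than in those with Pi16 and another gate gene, as 27.9% of all genes did and none of the 28 adventitial genes. Fmod (fibromodulin) had 394 and 179 CPM in cells with Pi16 and another gate gene, 190 and 393 in those without Pi16 and 1530 and 1337 in those with Pi16 alone. Chad had 766 and 786 CPM in the cells with Pi16 alone, against 117 and 101 in those with Pi16 and another gate gene. Tnmd (tenomodulin) had 813 and 597 against 59.6 and 64.7. Penk, which belongs to neither list, had 1091 and 1431 against 97.8 and 218. The profile of the cells with Pi16 alone was closest to Ltbp2-Cyp26a1-Comp cells, with r of 0.960 and 0.943 across genes. Cells with Pi16 and another gate gene had 0.903 and 0.917 with that subset and 0.904 and 0.915 with Kera-Thbs4 cells. Cells without Pi16 had 0.828 and 0.913 with it and 0.821 and 0.922 with Cxcl5-Csf3-Il11 cells. In WT1 these were 19 cells with 147750 UMIs, against 922381 with Pi16 alone and 1544211 with Pi16 and another gate gene. The r values by kind of cell use log2 of CPM plus 1 without TMM factors. They are not on the same scale as those given above for the whole subset. Of the cells with Pi16 alone, 69.7% and 64.2% held at least 3 UMIs of another gate set, against 31.1% and 36.8% of the cells with Pi16 and another gate gene. The adventitial profile was seen mainly in the gated cells with a Dpt or Clec3b UMI, and the whole subset is called here by its gate genes. With the gate limited to those 154 cells of WT1 and 266 of WT2, 650 genes were higher and 550 lower than in the mean of the other subsets, and 27 of the 28 adventitial genes were again higher.

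**Figure D5:**
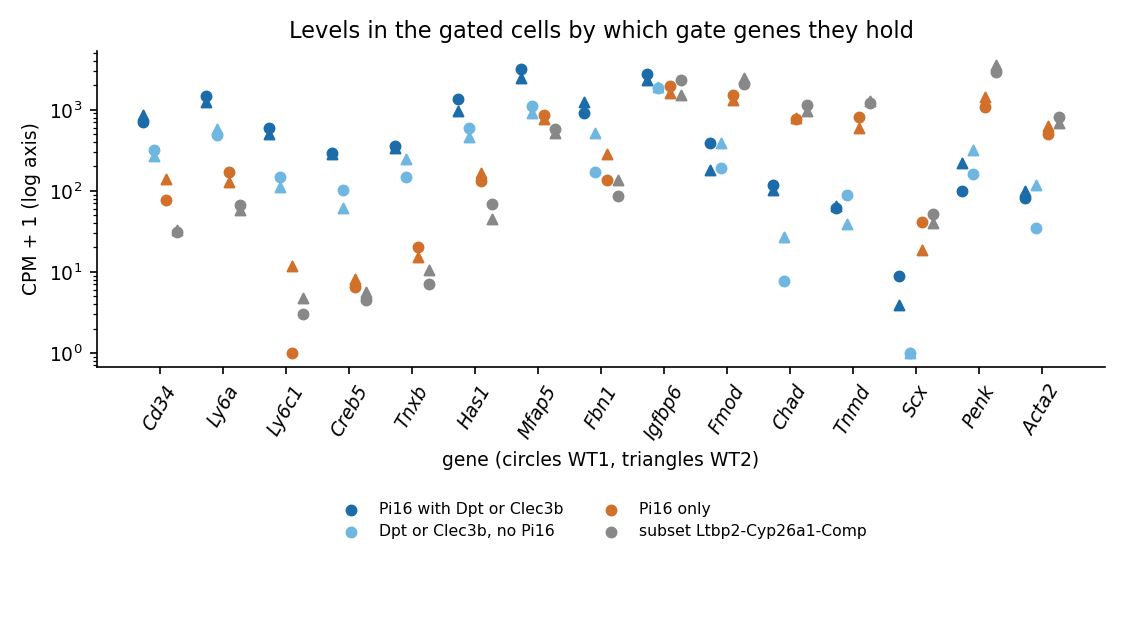
Levels in CPM plus 1 (y axis, log scale) of 15 genes (x axis) in gated cells with Pi16 and another gate gene, without Pi16 and with Pi16 alone, and in the Ltbp2-Cyp26a1-Comp subset, with circles for WT1 and triangles for WT2. Ly6c1, Creb5 and Tnxb lie lowest in the cells with Pi16 alone and the Ltbp2-Cyp26a1-Comp subset, where Fmod, Chad, Tnmd and Penk lie highest.

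Markers of other cell types were followed in the same sums. The fibroblast gate allowed at most 2 UMIs of Cdh5, Ptprc, Sox10, Higd1b and Myh11 together. The endothelial, macrophage and Schwann lists each hold 1 gate gene and the mural list 2. Endothelial-gated and macrophage-gated cells were chosen by genes of their own type. Low sums of these lists beside those cells therefore follow in part from the gates. Endothelial markers (8 genes) summed to 45.5 CPM in WT1 and 89.0 in WT2, against 16.1 to 444 and 28.2 to 494 in the other subsets and 8421 and 8358 in endothelial-gated cells. Macrophage markers (8 genes) summed to 92.6 and 138 CPM, against 10467 and 10117 in macrophage-gated cells, and Schwann markers (6 genes) to 9.56 and 7.61, with Foxd3 at 0 in both libraries. Kdr was called higher at 5.74 and 19.9 CPM and Emcn lower at 28.7 and 50.9 CPM, against 628 and 828 and against 1258 and 1092 in endothelial-gated cells. Without Cxcl5-Csf3-Il11 cells Emcn was not called. Mural markers (8 genes) summed to 725 and 886 CPM, within the range of the other subsets (270 to 2199 and 408 to 2007).

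RPE markers (7 genes) summed to 2332 and 2138 CPM, but 2 cells of WT1 held 5968 of their 6096 UMIs and 4 cells of WT2 held 6772 of 7304. Rod genes had 21 UMIs in WT1 and 223 in WT2, of which 205 lay in 2 cells, and Gnat1 and Pdc were called higher. At least 20 UMIs of another cell type were found in 8 cells of WT1 (3.48%) and 15 of WT2 (4.70%). Without such cells in any subset, 566 genes were higher and 252 lower, no rod gene was called, and the adventitial count stayed at 27 of 28. Krt19, a keratin of epithelia and mesothelium, was higher at 48.2 and 16.4 CPM against 3.92 and 0.677, in 26 and 24 cells, with 37.3% of its UMIs in 1 cell of WT1. Of 5 mesothelial markers, 3 were too sparse and 1 of the 2 tested was higher, with Lrrn4 at 0 in both libraries. Among 5 perineurial markers 2 were higher, but their sum of 119 and 124 CPM lay within the other subsets (72.5 to 236 and 69.9 to 254). Of 5 meningeal markers tested 1 was higher, of 3 adipocyte markers 1 was lower, and none of 6 melanocyte markers was called. The 7 meningeal markers summed to 2386.5 CPM in WT1, above the 565 to 1847 of the other subsets. In WT2 their sum of 1868 CPM lay within the other subsets (879 to 8508). Macrophage-gated cells held 9268.5 and 9363 CPM of them.

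The gated cells had a lower median share of mitochondrial UMIs, 1.97% in WT1 and 2.65% in WT2, than every other subset, which ranged from 2.49% to 3.11% and from 2.83% to 3.41%. The part of this in the gene counts was not tested. Each library holds both sexes, and cells with Xist and no Y-linked UMI made up 37.8% of the gated cells in WT1 and 70.5% in WT2, against 41.8% and 57.8% of all fibroblasts. The Y-linked gene Ddx3y was lower (log2 fold change -0.92, SE 0.13, adjusted p = 0.00012, edgeR), though under the limit of 1 used for calls, and Xist did not pass (-0.22, adjusted p = 0.39, edgeR). With 1 mouse of each sex in a library, sex and animal cannot be told apart.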

How the data were processed

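Raw UMI counts for all barcodes were deposited, and the authors used Cell Ranger to make them. The file headers name version 4, and the submitters' processing notes name version 2.1.1 and the build mm10. Which annotation was counted is not stated there. GENCODE M21 (GRCm38) held 32235 of the 32285 gene IDs and gave positions. No per-sample column was left unused.

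Barcodes with at least 1000 UMIs, 500 genes and at most 20% mitochondrial UMIs were kept. Scrublet doublets were kept in the main counts (3 gated cells in WT1 and 7 in WT2) and removed in an alternative, as was free RNA, estimated from rod genes in barcodes with at most 100 UMIs. That estimate was 0.893% of the UMIs of the gated cells in WT1 and 13.0% in WT2, where 205 of the 223 rod UMIs behind it lay in 2 cells. Counts were summed per library and subset, with totals of 2614342 and 3416266 UMIs for the Pi16-Dpt-Clec3b cells. The fit used edgeR 4.0.16 under R 4.3.3 (with limma 3.58.1), TMM factors of 0.896 to 1.11, filterByExpr, robust quasi-likelihood and library as block, with 6 residual degrees of freedom and a biological coefficient of variation of 0.120. Subsets with the same library number come from the same mice, so the number pairs them. SEs are |log2 fold change| over the square root of F. CPM values use raw totals. Strand and multi-mapped reads could not be checked. On simulated data for the main comparison (12333 genes), 93 of 100 genes changed 4-fold and 37 of 100 changed 2-fold were called, with 3 false calls. For the Pi16 split (12077 genes) it was 65 and 22, with 4 false calls.

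Named genes were, among called genes with 1 direction in both libraries and used by no gate, the 12 with the largest increase at 50 CPM or more in the subset and the 8 with the largest decrease at 50 CPM or more in the others, 6 each way for the other comparisons, and up to 4 per list. Further list members and Krt19, Kdr, Mki67, Xist and Ddx3y were named after their values were seen, and so were the tendon and cartilage genes of the 3 kinds of cells. The members, gates and gene lists were chosen with earlier results of these data known. Alternatives used DESeq2 1.42.0, no filter, no block, other gates, thinning and each library alone.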

Additional observations from a re-analysis of the deposited data

How the results depend on the processing

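The share of the subset among fibroblasts averaged 5.21% over the libraries, and was 4.63% with at least 5 UMIs of a set, 4.41% after thinning to 3000 UMIs, 3.89% with a Dpt or Clec3b UMI required and 3.03% without cells holding 3 UMIs of another set. Without each library in turn it ran from 4.92% to 5.51%. The 493 genes called higher against the other subsets became 400 to 650 under the alternatives with a test, while the 246 lower became 121 with no replicate block, 550 with a Dpt or Clec3b UMI required and 568 with the other subsets summed. Removing the block also gave 397 higher and 246 lower against Ltbp2-Cyp26a1-Comp cells, 426 higher and 472 lower against Cxcl5-Csf3-Il11 cells and 11 higher and 3 lower in the Pi16 split. With a Dpt or Clec3b UMI required, 682 genes were lower than in Ltbp2-Cyp26a1-Comp cells. In the Pi16 split, which rests on 19 cells without Pi16 in WT1, the 59 higher genes became 38 after thinning, 91 after free RNA was subtracted and 92 without cells of another set. The 45 lower ones became 104 with DESeq2, 78 without the filter, 83 without cells of another set and 79 without mixed cells. The cause was not tested. A single library leaves no residual degrees of freedom, so called genes still changed by 1 on the log2 scale were counted without a test, and these were 410 to 448 of the 493 higher, 191 to 194 of the 246 lower, 527 to 582 higher and 358 to 397 lower against Ltbp2-Cyp26a1-Comp cells, 578 to 587 higher and 672 to 698 lower against Cxcl5-Csf3-Il11 cells, and 50 to 55 higher and 27 to 40 lower in the Pi16 split. Of 157 single-gene results, 107 kept direction and side of the threshold under every alternative that gave a value, leaving aside the values of 1 library. Among them, 38 of the 120 calls against the mean of the other subsets and 11 of the 12 in the Pi16 split were lost under at least 1 alternative, and none of the 12 named against Ltbp2-Cyp26a1-Comp or of the 12 against Cxcl5-Csf3-Il11 cells. The sign of Procr, which was not called, turned to 0.023 after thinning, 0.072 without Scrublet doublets, 0.11 with a Dpt or Clec3b UMI required and 0.32 without Cxcl5-Csf3-Il11 cells, and was -0.38 to 0.26 in the single libraries. Thinning tested 8241 genes, so low genes dropped out of reach.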
